A study of Mus musculus with 2 samples.

Results

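The genes described here encode the hair keratin-associated proteins, which carry the symbol Krtap in the mouse. Members were all protein-coding genes whose symbol begins with Krtap and whose expected count was above 0 in at least 1 of 2 RNA-seq libraries. The annotation held 57 coding Krtap genes, 56 of them had a value in the deposited tables, 6 of those were listed at 0 in both libraries, and 50 were members. The tables held 21474 coding genes in all. Members were chosen by measured values, the expected counts themselves, so their levels are a description and support nothing by themselves.

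Keratin-associated proteins are small structural proteins of the hair shaft. They fill the space between the keratin filaments in the cells of the shaft and are cross-linked to them and to each other through disulfide bonds between cysteines. By composition they are told apart as high-glycine-tyrosine proteins, high-sulfur proteins and, with even more cysteine, ultra-high-sulfur proteins. In the mouse face the whisker follicles form before the pelage follicles, and shaft genes are switched on late in a follicle's development, once shaft cells differentiate.

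Both libraries were total RNA-seq of facial prominence, the tissue of the developing face and jaws, taken from B6NCrl embryos at embryonic day 15.5. No treatment, mutation or second group was named, and the libraries were labelled biological replicates of a single group. The first library pooled 78 embryos and the second 62, with both sexes mixed in each, so no value belongs to a single embryo. Each library began from 10 ng of RNA longer than 200 nucleotides. The total of expected counts was 37128010 for replicate 1 and 38543623 for replicate 2, of which mouse genes took 36048494 and 36774513, and spike-in sequences took 2.91% and 4.59%. Levels are in TPM, a read count divided by transcript length and by library size, on which 1 read over 1 kb was worth 0.0406 in replicate 1 and 0.0389 in replicate 2.

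The members differ first in the proteins they encode, and short stretches of their coding sequence show the 3 kinds. Each stretch below is 25 codons long and is the one richest in the marked codons, read from GENCODE M21 on GRCm38. Capitals mark cysteine codons in the first 3 sequences and glycine or tyrosine codons in the last 2. The Krtap28-13 stretch (chr1:83061182-83061256, plus strand) has 13 cysteine codons of 25. The ultra-high-sulfur Krtap4-9 (chr11:99785444-99785518, plus strand) has 11, mostly as pairs spaced by short runs of other codons. In the high-sulfur Krtap13 (chr16:88751359-88751433, minus strand) there are 6, in a repeat of cysteine and other codons. Glycine or tyrosine fills 19 of 25 codons in Krtap6-5 (chr16:89047763-89047837, minus strand) and 15 of 25 in Krtap8-1 (chr16:89487764-89487838, minus strand).
Krtap28-13: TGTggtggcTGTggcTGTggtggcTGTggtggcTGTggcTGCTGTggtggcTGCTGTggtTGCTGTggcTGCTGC
Krtap4-9: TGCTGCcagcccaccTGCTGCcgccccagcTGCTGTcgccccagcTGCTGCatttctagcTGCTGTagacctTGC
Krtap13: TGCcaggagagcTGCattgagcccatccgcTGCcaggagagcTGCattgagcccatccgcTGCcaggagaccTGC
Krtap6-5: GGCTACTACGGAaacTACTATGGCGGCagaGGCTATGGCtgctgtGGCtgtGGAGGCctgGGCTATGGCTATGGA
Krtap8-1: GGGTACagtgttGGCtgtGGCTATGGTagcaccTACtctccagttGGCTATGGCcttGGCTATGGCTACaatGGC

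Composition over the whole protein put 19 members in an ultra-high-sulfur class (cysteine above 30% of residues), 13 in a high-glycine-tyrosine class (glycine plus tyrosine above 25%, cysteine at or under 30%) and the other 18 in a high-sulfur class. Ultra-high-sulfur members had a median of 37.9% cysteine, with a highest value of 42.9% in Krtap28-10. High-glycine-tyrosine members had a median of 64.1% glycine plus tyrosine and only 9.20% cysteine. High-sulfur members spread widely, from 4.00% cysteine in Krtap15 to 29.8% in Krtap2-4. The limits of 30% and 25% were set after the compositions were seen, and 4 members lay close to one. Krtap10-4 (30.3% cysteine) and Krtap1-3 (30.6%) were just ultra-high-sulfur, Krtap2-4 was just not, and Krtap15 (24.0% glycine plus tyrosine) fell just outside the high-glycine-tyrosine class. The ultra-high-sulfur class was itself mixed, since Krtap17-1, Krtap28-10, Krtap28-13, Krtap5-2 and Krtap5-3 were also rich in glycine (34.9% to 42.0% glycine plus tyrosine), while the Krtap4 proteins were not (2.56% to 4.95%).

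**Figure D1:**
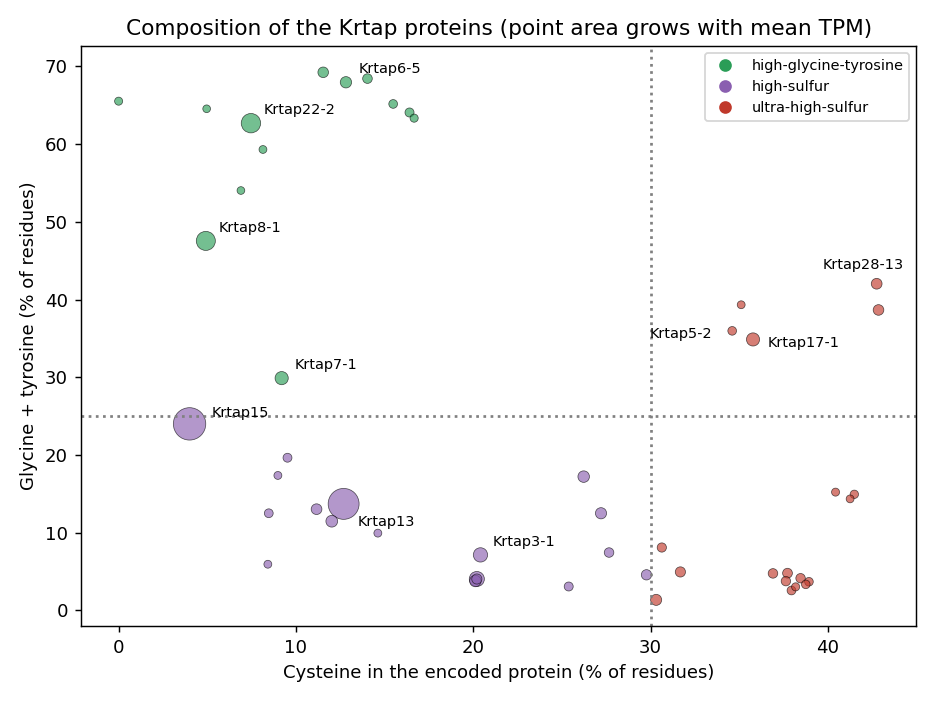
Cysteine (x axis, % of residues) against glycine plus tyrosine (y axis, % of residues) for the proteins of the 50 Krtap genes, coloured by class, with point area growing with the mean TPM of both libraries and dotted lines at 30% and 25%. The genes with the largest points, Krtap15 and Krtap13, lie in the lower left, at 4.00% and 12.7% cysteine, away from the cysteine-rich group on the right.

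In GENCODE M21 the transcript with the longest coding sequence is a single exon in all 50 members, and the members lie in 5 clusters on GRCm38 when neighbours up to 1 Mb apart are joined. The chromosome 16 cluster (chr16:88610705-89571183) holds 24 coding Krtap genes, 21 of them members, with all 13 high-glycine-tyrosine members and 8 high-sulfur ones. The chromosome 11 cluster (chr11:99550130-99993994) holds 23, of which 20 were members, 9 high-sulfur and 11 ultra-high-sulfur. Krtap28-10 and Krtap28-13 form a pair on chromosome 1 (chr1:83041524-83061921). On chromosome 7 (chr7:142174535-142304594) lie the 5 Krtap5 genes, and on chromosome 10 (chr10:77720599-77837252) lie 3 genes, of which Krtap10-4 and Krtap12-1 were members.

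Promoter sequence was a feature that the choice of members did not use. RefSeq (GRCm38.p6) gave a promoter of 250 bases before to 50 after the start for 45 of the 50 members. A TATA box is a short motif that fixes where transcription starts, usually a few turns of the helix upstream. The letters TATAAA stood on either strand in 38 of the 45 members (84.4%) and in 13.6% of 32851 mouse promoters of the same length. The shorter TATAA, which every TATAAA contains, stood in 45 of 45 members and in 24.9% of all promoters. Restricted to the gene's own strand and to first bases 40 to 20 before the start, TATAAA stood in 28 of 45 members (62.2%) against 1.99% of all promoters, and TATAA in 33 of 45 (73.3%) against 3.52%. In the 37 members with an upstream TATAAA on the gene's strand, the nearest began 27 to 92 bases before the start, with a median of 31. CTTTGAA and CTTTGAT, 2 spellings of the sequence that LEF1-type factors bind, were also searched on both strands. CTTTGAA stood in 9 of 45 members (20.0%) against 5.14% of all promoters, and CTTTGAT in 4 of 45 (8.89%) against 3.73%. Members of 1 family share promoter sequence by descent, so these counts are not independent, and a match shows letters and not a bound site.

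The sequences below are 100 bases each, 80 before and 20 from the RefSeq start, for leading members of both large clusters and of the chromosome 1 pair, with TATAA in capitals. The capitals begin 29 bases before the start in Krtap8-1, 35 in Krtap22-2 and 49 in Krtap13, all on chromosome 16. On chromosome 11 they begin at 31 in Krtap3-3 and in Krtap17-1, at 37 in Krtap3-1 and at 44 in Krtap16-1, and on chromosome 1 at 31 in Krtap28-13. Krtap3-3 is shown since it holds TATAA but not TATAAA. Positions are chr16:88751609-88751708, chr16:89487933-89488032, chr16:89010740-89010839, chr11:99550844-99550943, chr11:99566611-99566710, chr11:99993975-99994074 and chr11:99986574-99986673 on the minus strand, in the order printed, and chr1:83060850-83060949 on the plus strand.
Krtap13: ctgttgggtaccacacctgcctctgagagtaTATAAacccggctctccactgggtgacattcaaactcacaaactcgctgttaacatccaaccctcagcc
Krtap8-1: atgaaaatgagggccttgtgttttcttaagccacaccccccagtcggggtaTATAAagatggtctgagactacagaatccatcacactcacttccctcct
Krtap22-2: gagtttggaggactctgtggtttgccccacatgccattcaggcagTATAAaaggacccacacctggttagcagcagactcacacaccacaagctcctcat
Krtap3-3: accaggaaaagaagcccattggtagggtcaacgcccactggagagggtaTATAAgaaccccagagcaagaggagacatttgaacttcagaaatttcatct
Krtap3-1: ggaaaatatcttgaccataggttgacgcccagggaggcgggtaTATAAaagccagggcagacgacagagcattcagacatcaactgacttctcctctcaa
Krtap17-1: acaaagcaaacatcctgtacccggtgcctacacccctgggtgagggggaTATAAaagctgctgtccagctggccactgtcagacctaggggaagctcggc
Krtap16-1: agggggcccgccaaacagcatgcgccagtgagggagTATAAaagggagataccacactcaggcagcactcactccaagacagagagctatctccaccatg
Krtap28-13: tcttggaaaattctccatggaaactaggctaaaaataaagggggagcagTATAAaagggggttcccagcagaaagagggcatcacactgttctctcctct

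The members were transcribed at low to middling levels, with a steep gradient among them. The summed TPM was 294.1 for replicate 1 and 146.5 for replicate 2, a mean of 220.2 ± 104 (SD, n = 2). That was 0.0314% and 0.0163% of the TPM of all mouse genes. Krtap15 and Krtap13, both on chromosome 16, held 44.1% of the summed TPM in replicate 1 and 43.4% in replicate 2, and the 5 highest members held 63.6% and 59.7%. The median member stood at 1.78 TPM in replicate 1 and 1.32 TPM in replicate 2. At 1 TPM or more in both libraries were 29 of the 50 members (58.0%), beside 65.4% of all coding genes, and since levels entered the choice of members nothing is read from that share. Between the libraries the order of the members changed little (Spearman's rho 0.935 over 50 genes, which share library and depth).

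**Figure D2:**
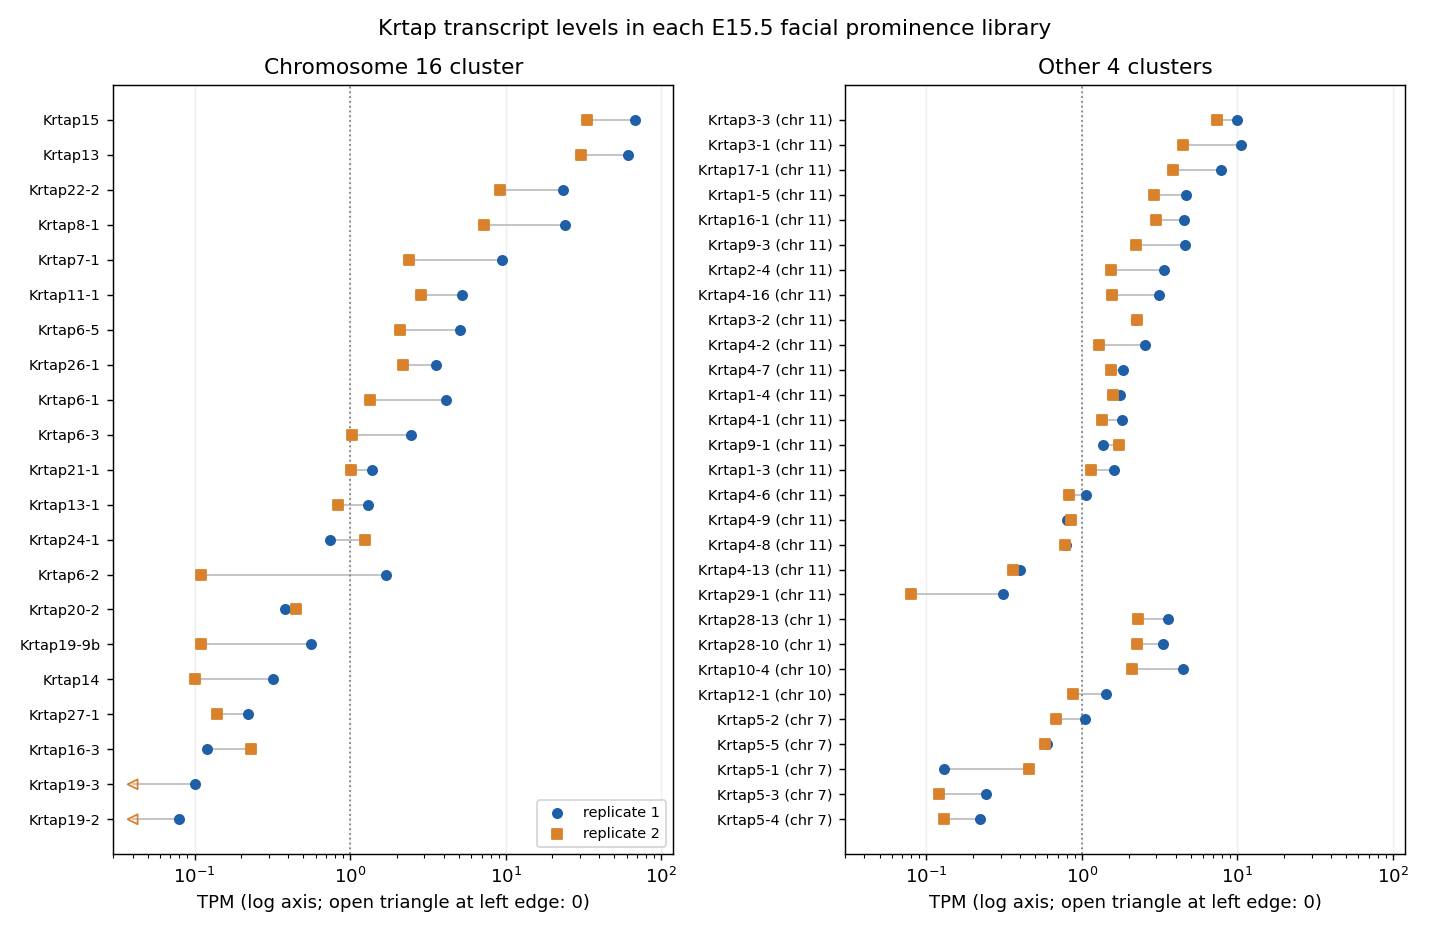
TPM (x axis, log scale) of each of the 50 Krtap genes in replicate 1 (blue circles) and replicate 2 (orange squares), with the chromosome 16 cluster on the left, the other clusters on the right, a dotted line at 1 TPM and open triangles for 0. Replicate 1 lies to the right for 43 of the 50 genes, and Krtap15 and Krtap13 stand above 30 TPM in both libraries.

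By chromosome, the 21 members on chromosome 16 summed to 214.0 and 96.2 TPM, or 72.8% and 65.7% of all members. The 20 on chromosome 11 summed to 65.1 and 40.8 TPM (22.1% and 27.8%). The Krtap28 pair on chromosome 1 summed to 6.90 and 4.58 TPM, the chromosome 10 members to 5.87 and 2.97 TPM, and the 5 Krtap5 genes on chromosome 7 to only 2.23 and 1.97 TPM. By class, high-sulfur members held most of the TPM (184.5 and 97.4), then high-glycine-tyrosine members (72.8 and 25.1) and ultra-high-sulfur members (36.8 and 23.9). That order rests on Krtap15, close to the limit between the first 2 classes: counted as high-glycine-tyrosine, it would give that class 141.1 and 58.3 TPM and leave the high-sulfur class 116.2 and 64.2, which turns the order in replicate 1. Levels of the high-sulfur class rested on Krtap15 and Krtap13 on chromosome 16, while its 9 members on chromosome 11 summed to 41.9 and 25.5 TPM.

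**Figure D3:**
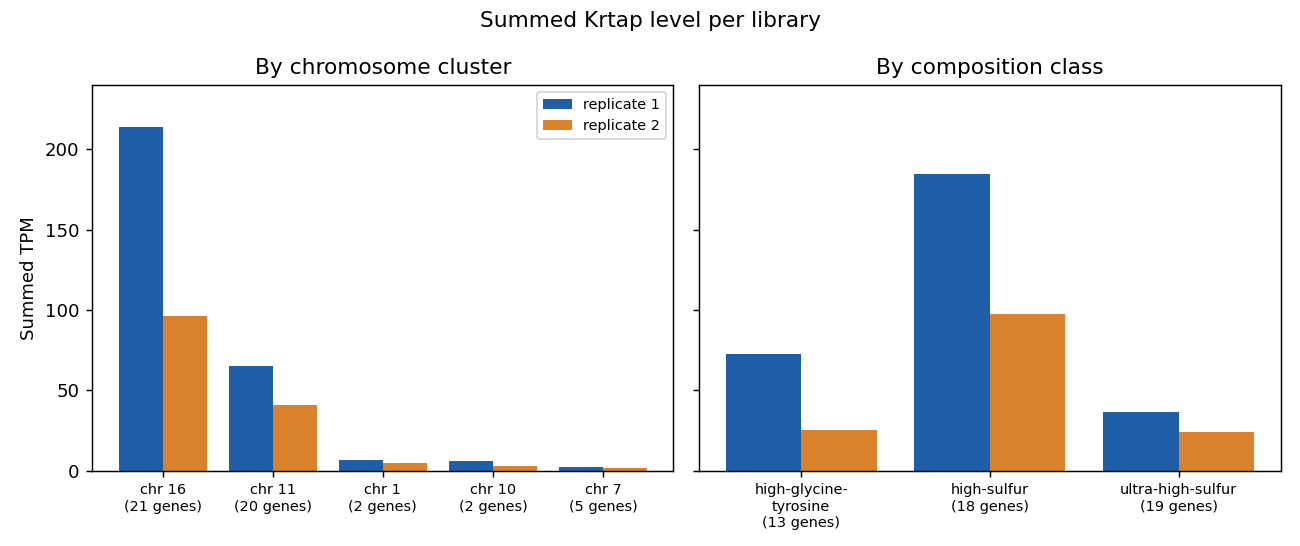
Summed TPM (y axis) of the Krtap genes in replicate 1 (blue) and replicate 2 (orange) by chromosome cluster on the left and by composition class on the right, with the number of genes under each pair of bars. Each bar is a sum in 1 library and has no error bar, the chromosome 16 cluster is highest in both libraries (214.0 and 96.2), and all pairs have the taller bar in replicate 1.

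Among the high-sulfur genes of chromosome 16, Krtap15 had the highest TPM, 68.3 in replicate 1 and 33.2 in replicate 2 (477 and 241 expected counts). Krtap13 had the most reads, 1185 and 613 rounded counts, and 61.4 and 30.5 TPM. Replicate 1 was about 2-fold higher in both genes, and the authors' credibility bounds of the libraries did not overlap (56.6 to 63.5 against 27.5 to 32.2 TPM in Krtap13). Krtap11-1 followed at 5.27 and 2.87 TPM and Krtap26-1 at 3.58 and 2.18 TPM. Krtap13-1, a relative of Krtap13 with 45.7% identical residues, was far lower at 1.31 and 0.84 TPM. Krtap24-1 went the other way, at 0.74 TPM in replicate 1 and 1.24 TPM in replicate 2. Krtap14 and Krtap27-1 had 8 and 5 counts over both libraries, too few to place them.

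The level of Krtap15 rested on 1 transcript model. The tables split the gene between a single-exon transcript of 851 nucleotides, which carries the coding sequence of 150 residues, and a spliced model of 381 nucleotides in 4 exons (chr16:88820215-88829484, plus strand). The authors' estimates put 473 and 240 counts on the spliced model, 99.7% and 99.8% of the gene's transcripts, and 4 and 1 counts on the single-exon transcript. Only 180 of the 381 bases of the spliced model lie within the single-exon transcript, and its first exon, of 196 bases, lies upstream of it. With all counts placed on the longer model, Krtap15 would have stood at 25.7 and 12.5 TPM, still behind only Krtap13, and the summed TPM at 251.5 and 125.8. The authors' estimates gave that longer transcript only 0.22 and 0.05 TPM. The composition and class of Krtap15 come from its coding sequence, so the level of a transcript encoding that protein is not settled. The gene's span also overlaps Krtap14 on the opposite strand and, on its own strand, a long noncoding RNA gene, 4930553J12Rik, which had no row. The 100-base windows of both models were pooled. The share within the spliced model alone, which took nearly all counts, was not worked out and may be larger. Of the pooled windows of Krtap15, 10.1% also occur in another gene's transcript, most often that of 4930553J12Rik. Reads of that RNA, if any, cannot be told apart there from reads of Krtap15, whether or not strand entered the counting. Use of strand is not given in the sources used here, so genes on opposite strands may not have been kept apart either.

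High-glycine-tyrosine genes, whose products lie mainly in the shaft cortex, were led by Krtap22-2 and Krtap8-1. Krtap8-1 stood at 23.9 TPM in replicate 1 and 7.22 TPM in replicate 2 (283 and 89 counts), and Krtap22-2 at 23.4 and 9.14 TPM (162 and 66 counts). Replicate 1 was more than 2-fold higher in both. Krtap7-1 had 9.43 and 2.39 TPM (121 and 32 counts). In the Krtap6 family the order was Krtap6-5 (5.09 and 2.10 TPM), Krtap6-1 (4.15 and 1.35 TPM), Krtap6-3 (2.47 and 1.03 TPM) and Krtap6-2 (1.71 and 0.11 TPM). The SDs of the first 2 (2.11 and 1.98) exceeded the gap between them, but they hold the lower level that both genes share in replicate 2. Krtap6-5 was above Krtap6-1 in each library. Krtap6-2 had 29 counts in replicate 1 and 2 in replicate 2. Krtap21-1 differed least of the 7 genes with at least 10 counts in each library, at 1.38 and 1.02 TPM. The remaining 5 genes lay near the limit of detection: Krtap20-2 at 4 and 5 counts, Krtap19-9b at 5 and 1, Krtap16-3 at 1.44 and 3, and Krtap19-2 and Krtap19-3 at a single count each in replicate 1 and none in replicate 2.

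On chromosome 11 the high-sulfur Krtap3 family was highest. Krtap3-1 stood at 10.5 and 4.47 TPM, and Krtap3-3 at 9.87 and 7.43 TPM. Krtap3-2 was lower and level between the libraries, at 2.23 and 2.27 TPM. Krtap3-2 and Krtap3-3 encode identical proteins, and 25.1% and 36.7% of their 100-base windows also occur in another gene's transcript, so how reads were split between them is uncertain, as are their separate ratios. Krtap1-5 had 4.70 and 2.89 TPM, Krtap1-4 1.76 and 1.58 TPM, and Krtap9-3 4.59 and 2.24 TPM. Krtap16-1, whose product of 502 residues is the longest of the members, stood at 4.54 and 2.98 TPM, and Krtap2-4 at 3.39 and 1.54 TPM, with 35.9% of its windows shared. Krtap29-1, with 7 and 2 counts, was the lowest of the class on this chromosome.

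Ultra-high-sulfur genes were spread over 4 clusters and none passed 10 TPM. Krtap17-1, the highest, stood at 7.85 and 3.88 TPM (128 and 66 counts). The Krtap28 pair was nearly even, Krtap28-13 at 3.59 and 2.31 TPM and Krtap28-10 at 3.31 and 2.27 TPM. Krtap28-13 was slightly above in each library, by a gap smaller than either SD, which holds the difference between libraries that both genes share. Krtap10-4 stood at 4.45 and 2.09 TPM. Of the 8 Krtap4 genes, Krtap4-16 (3.13 and 1.55 TPM) and Krtap4-2 (2.55 and 1.29 TPM) were highest. Krtap4-7 (1.83 and 1.54 TPM), Krtap4-1 (1.80 and 1.35 TPM), Krtap4-6 (1.06 and 0.83 TPM), Krtap4-9 (0.80 and 0.85 TPM) and Krtap4-8 (0.79 and 0.78 TPM) differed less between the libraries. Krtap4-13, with 62.8% of its windows shared, had 7 and 6.59 counts. Krtap9-1 was higher in replicate 2, at 1.36 and 1.72 TPM, and Krtap1-3 had 1.61 and 1.15 TPM. In the Krtap5 family, known from the hair cuticle, Krtap5-2 led at 1.04 and 0.68 TPM, ahead of Krtap5-5 at 0.60 and 0.58 TPM, and Krtap5-1, Krtap5-3 and Krtap5-4 had at most 8 counts in a library.

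Both chromosome 10 members lie within the span of the gene Tspear. Krtap12-1, on the same strand as Tspear, had 1.42 and 0.88 TPM, and Krtap10-4 lies on the opposite strand. Tspear had 113 and 119 counts (2.57 and 2.45 TPM) and differed little between the libraries, whereas Krtap10-4 had 96.7 and 47.4 counts. Krtap10-4 also overlaps Gm2696, for which no value was given.

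At the lower edge, Krtap19-2 and Krtap19-3 were members through 1 count each, and the 6 genes just outside had none. Those 6 were 3 Krtap19 genes on chromosome 16 and, on chromosome 11, both Krtap31 genes and Krtap9-5. For a gene listed at 0, a limit of 3 counts corresponds to between 0.124 TPM (Krtap9-5) and 0.594 TPM (Krtap19-4) in replicate 1 and between 0.119 and 0.569 TPM in replicate 2. These limits cover counting error only. Of the 6 Krtap19 genes with a value, then, 3 were seen at 1 to 6 counts in all, and Krtap20-2 and Krtap16-3 of the same cluster were as sparse.

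The 2 pools differed in these genes by more than counting error. Ratios are the log2 of the second library over the first, with TMM scaling, which sets the bulk of genes level, so that negative values are lower in replicate 2. Ratios of single genes carry a prior count of 2, ratios of sums carry none, and brackets give the exact (Clopper-Pearson) 95% interval of the split of the counts, which covers counting error and not the spread between pools. With 1 group there is no test of the difference, and the ratios compare these libraries. Summed over all members, counts were 4276 (exact Poisson 95% interval 4149 to 4406) and 2375 (2280 to 2472), a log2 ratio of -0.91 (-0.98 to -0.83), or 1.88-fold more in replicate 1. In bulk tissue, fewer shaft cells and less RNA in each of them cannot be told apart.

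Of the 50 members, 37 had 10 or more counts in both libraries. In that set 32 (86.5%) were lower in replicate 2, beside 48.6% of 15721 coding genes with the same counts. More than 2-fold lower were 12 (32.4%), beside 0.649% of coding genes, and none was more than 2-fold higher, beside 1.11% of coding genes. Because few reads widen ratios, the count was repeated for genes with 10 to 200 counts in both libraries, where 9 of 34 members (26.5%) and 2.29% of 3312 coding genes were more than 2-fold lower. The median ratio was -0.62 over the 37 members and 0.00 over the coding genes, whose 5th and 95th percentiles were -0.38 and 0.53. In 22 of the 37 the counting interval lay wholly below 0, in 14 it held 0, and in Krtap24-1 it lay above. The other 13 members had too few reads in at least 1 library.

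The ratio differed in size by class. High-glycine-tyrosine members summed to 766 and 269 counts, a log2 ratio of -1.57 (-1.77 to -1.37). High-sulfur members summed to 2744 and 1578 counts, a ratio of -0.86 (-0.95 to -0.77), and ultra-high-sulfur members to 766 and 528 counts, a ratio of -0.60 (-0.76 to -0.43). The intervals of the 3 classes do not overlap, which speaks of counting error alone. With Krtap15 counted as high-glycine-tyrosine, that class had -1.34 (-1.50 to -1.19) and the high-sulfur class -0.82 (-0.92 to -0.72), which overlaps the ultra-high-sulfur interval. By single genes, 6 of 7 high-glycine-tyrosine members were more than 2-fold lower (median ratio -1.33), 5 of 15 high-sulfur members (median -0.68) and 1 of 15 ultra-high-sulfur members, Krtap10-4 (median -0.46). Class and position are entangled, since all high-glycine-tyrosine members lie on chromosome 16. Within that cluster the high-sulfur members had a ratio of sums of -0.95 (-1.06 to -0.84), apart from the high-glycine-tyrosine members, and on chromosome 11 high-sulfur and ultra-high-sulfur members had -0.67 (-0.83 to -0.51) and -0.56 (-0.77 to -0.35), which overlap.

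The lowest ratios were those of Krtap7-1 (-1.91), Krtap8-1 (-1.71), Krtap6-1 (-1.54), Krtap22-2 (-1.33), Krtap6-5 (-1.22), Krtap3-1 (-1.21) and Krtap6-3 (-1.11). The others past 2-fold were Krtap2-4 (-1.08), Krtap10-4 (-1.07), Krtap15 (-1.04) and Krtap13 (-1.01), with Krtap9-3 on the limit itself. Those 5 lie at the limit, and for none does the counting interval keep clear of 2-fold. Of all 12, only in Krtap7-1 and Krtap8-1 does it do so, with upper bounds of -1.41 and -1.38. Krtap17-1 (-0.99), Krtap4-16 (-0.97) and Krtap4-2 (-0.94) were just inside. Ratios above 0 were seen in Krtap24-1 (0.70, interval 0.03 to 1.48), Krtap9-1 (0.32), Krtap4-9 (0.08), Krtap3-2 (0.02) and Krtap4-8 (0.02), and the intervals of the last 4 held 0. Krtap6-2, which missed the count limit in replicate 2, had an interval of -7.03 to -1.93.

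**Figure D4:**
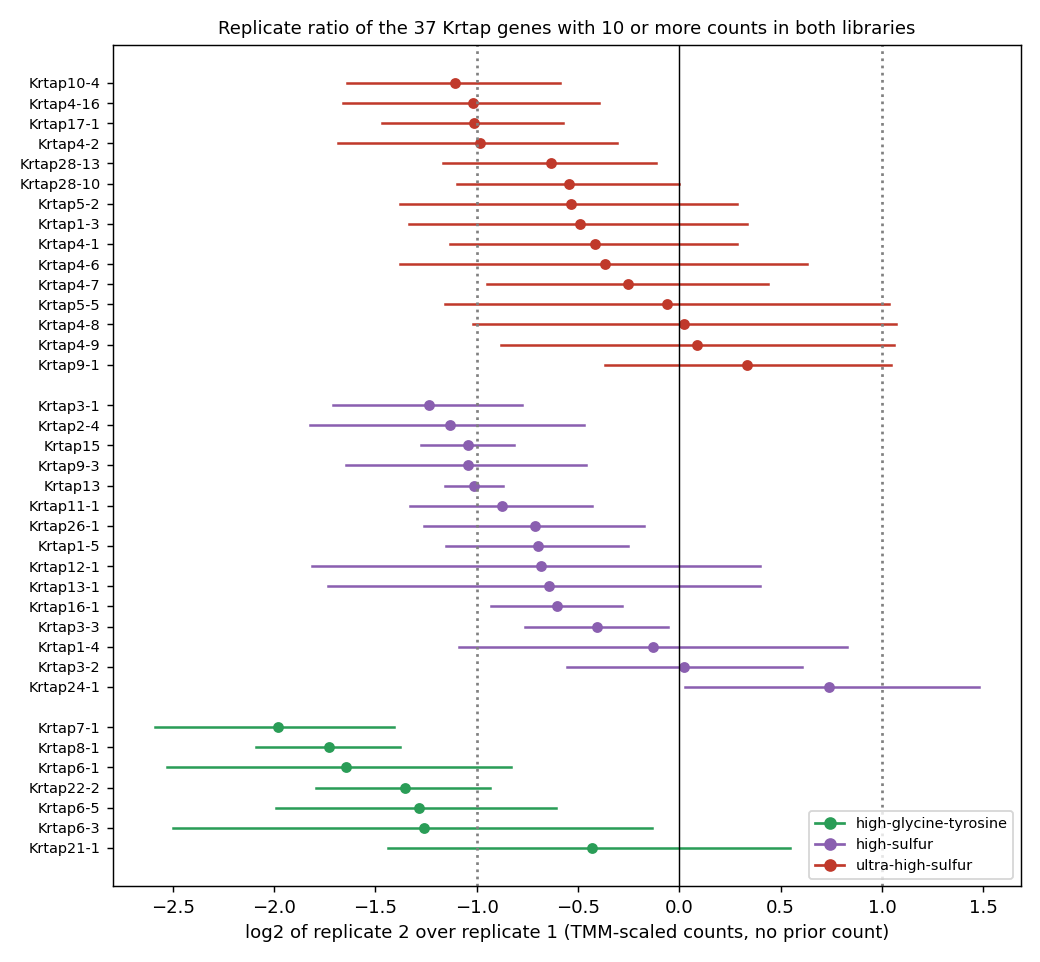
Log2 ratio of replicate 2 over replicate 1 (x axis, TMM-scaled counts with no prior count) for the 37 Krtap genes with at least 10 counts in each library, grouped and coloured by class, with bars for the exact 95% interval of the count split and dotted lines at 2-fold. Of the high-glycine-tyrosine genes at the bottom (summed ratio -1.57), 6 lie to the left of 2-fold and Krtap21-1 does not, and Krtap24-1 is the only gene whose bar lies above 0.

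Genes that share the follicle with the members were set beside them, from lists chosen with earlier results of these data known. Hair shaft keratins build the filaments that keratin-associated proteins embed. Of the 16 listed, Krt85 had no value. All 15 with a value were detected, 11 at 1 TPM or more in both libraries, beside 65.4% of all coding genes. Krt35, made early in the shaft, stood at 30.2 and 18.1 TPM, Krt33b at 14.4 and 5.73 TPM and Krt83 at 13.4 and 4.40 TPM. Their summed ratio was -1.02 (-1.09 to -0.94), 13 of 13 with enough counts were lower in replicate 2, and 9 of 13 were more than 2-fold lower. Krt84, under the count limit with 3 and 14 counts, was the shaft keratin that went the other way. The summed ratio of the Krtap members was -0.91.

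The inner root sheath, the sleeve that moulds the growing shaft, had higher levels. Its keratin Krt71 stood at 158 and 79.6 TPM and Krt27 at 58.0 and 35.3 TPM. The regulator Gata3, also on the list, stood at 40.7 and 42.5 TPM and was level between the libraries (ratio 0.06). Which cells its reads came from was not tested. The list's summed ratio was -0.81 (-0.84 to -0.78), 9 of 11 genes were lower in replicate 2, and Krt25 (57.2 and 20.5 TPM) had the lowest ratio, -1.48. Among other shaft proteins, the calcium-binding S100a3 (59.3 and 26.8 TPM), the receptor-like Gprc5d (5.79 and 2.24 TPM) and the desmoglein Dsg4 (0.53 and 0.15 TPM) were more than 2-fold lower in replicate 2. Selenbp1 (41.4 and 48.3 TPM) and Crym (29.6 and 29.9 TPM) were not lower.

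Regulators of the hair matrix and shaft differed much less. Of 15, 0 passed 2-fold and the median ratio was 0.00. These are ratios of the whole tissue, and how much of each regulator's reads came from follicles was not tested. Nfib stood at 71.5 and 67.3 TPM, Cux1 at 58.0 and 60.9 TPM and Sox9 at 36.4 and 47.2 TPM. Hoxc13, a homeobox gene that switches on hair keratins and keratin-associated genes, had 4.16 and 3.11 TPM and the lowest ratio of the list, -0.41. Lef1 (39.2 and 43.1 TPM) and Foxn1 (3.73 and 3.31 TPM) lay near level. The 12 placode and dermal papilla genes had a median ratio of -0.02, with Sostdc1 at 188 and 176 TPM, Bmp2 at 15.5 and 17.6 TPM and Wnt10a at 13.2 and 10.4 TPM. Epidermal genes also lay near level (median ratio -0.04 over 7 genes), among them Krt14 (1005 and 887 TPM), Krt5 (793 and 682 TPM) and the epidermal Krtdap (1335 and 1489 TPM).

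Genes of other tissues in the dissection moved as well. Skeletal muscle genes were lower in replicate 2 (4 of 4, summed ratio -0.43), with Actc1 at 1182 and 893 TPM, Acta1 at 1033 and 801 TPM and Myl1 at 627 and 464 TPM. In the cartilage and bone list Col2a1 (182 and 305 TPM) and Acan (9.08 and 14.0 TPM) were higher in replicate 2. Col1a1 (3354 and 3336 TPM) and Sp7 (28.2 and 27.2 TPM) were level. Facial mesenchyme genes had a median ratio of 0.12, with Msx1 at 145 and 158 TPM, Osr2 at 99.9 and 120 TPM and Prrx1 at 79.0 and 86.1 TPM. Periderm genes had a median ratio of 0.37, with Krt17 at 404 and 314 TPM, Krt6a at 263 and 247 TPM and Krt8 at 115 and 155 TPM. Oral and tongue genes had a median ratio of -0.73 over 5 genes, with Krt4 at 170 and 171 TPM, Krt13 at 181 and 122 TPM and Krt24 at 3.81 and 2.27 TPM. Of the 5, 4 were lower in replicate 2, and 2 were more than 2-fold lower, Krt76 (1.78 and 0.49 TPM, ratio -1.78) and Krt36 (ratio -1.26). Krt36 and Krt84 belong to this list and to the shaft keratins. The part of tissue make-up and of the larger spike-in share of replicate 2 in the Krtap difference was not tested.

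**Figure D5:**
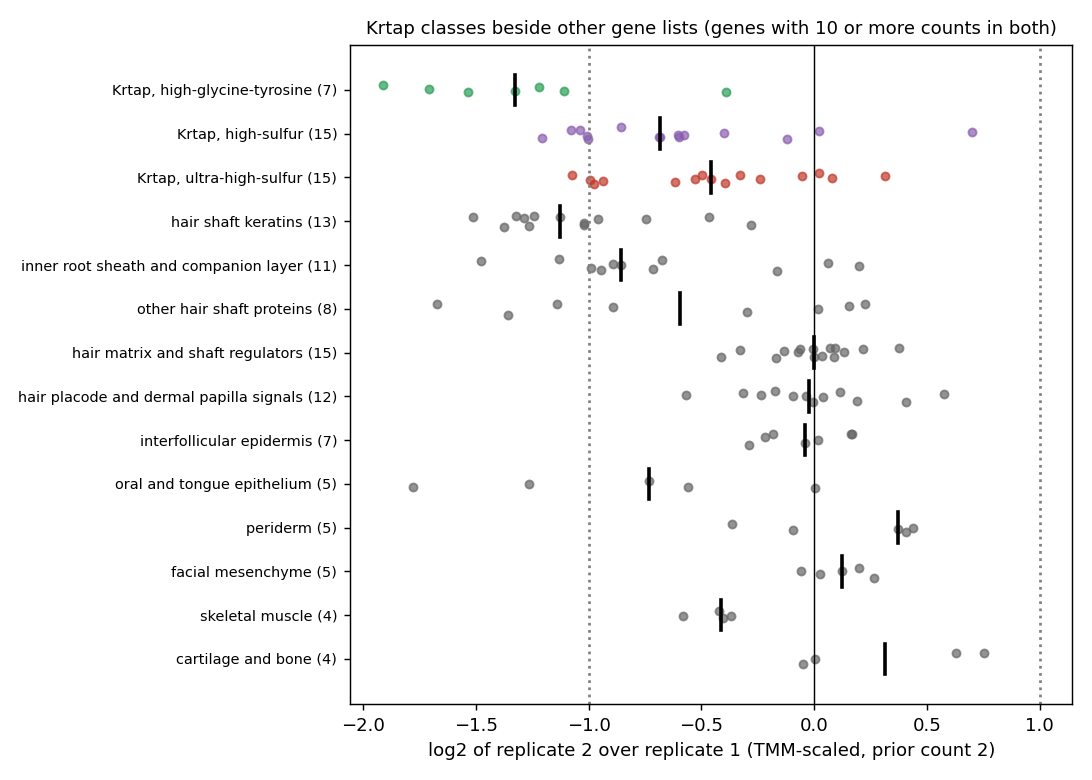
Log2 ratio of replicate 2 over replicate 1 (x axis, TMM-scaled, prior count of 2) for the 3 Krtap classes (coloured) and for 11 gene lists (grey), where each point is a gene with at least 10 counts in each library, black bars are medians and the number of genes stands in brackets. The medians of shaft keratins and high-glycine-tyrosine Krtap genes lie farthest left (-1.13 and -1.33), while regulators, placode genes and epidermal genes lie around 0.

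The direction of these differences depends on what the counts are set against. Scaled to spike-in counts, which shifted the median gene by -0.65, the members' summed ratio was -1.56 and every class was lower in replicate 2. Scaled to the summed counts of the epidermal keratins Krt5, Krt14, Krt1 and Krt10, the members stayed lower in replicate 2, at -0.79 (-0.86 to -0.72). Scaled to the shaft keratins, the members as a whole were slightly higher in replicate 2, at 0.11 (0.04 to 0.18). On that scale the classes parted, with high-glycine-tyrosine members at -0.55 (-0.76 to -0.35), high-sulfur members at 0.16 (0.07 to 0.25) and ultra-high-sulfur members at 0.42 (0.26 to 0.58). Scaled to the inner root sheath list, they stood at -0.76 (-0.96 to -0.55), -0.04 (-0.13 to 0.05) and 0.22 (0.06 to 0.38). Of that list's 24952 and 14788 summed counts, 3111 and 3380 came from Gata3, whose own ratio was 0.06. The scaling was not repeated without Gata3, so the sign of values near 0 on this scale is not settled. The order of the classes was the same on every scale, since a scale shifts all 3 alike. On these scales and the TMM scale, only the high-glycine-tyrosine class was lower in replicate 2 throughout with an interval clear of 0. The 3 gene-based scales were chosen after the data were seen, and the intervals cover the members' counting error only.

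Sequence shared with other genes limits what single members can show. In 30 of the 50, no 100-base window of the transcript occurs in another gene's transcript, and among these are Krtap22-2, Krtap8-1, Krtap7-1, Krtap3-1, Krtap17-1 and Krtap16-1. In 11 members more than 10% of windows are shared: Krtap4-13, Krtap3-3, Krtap2-4, Krtap5-1, Krtap9-1, Krtap3-2, Krtap10-4, Krtap13 (16.9%), Krtap6-1 (15.6%), Krtap4-8 and Krtap15 (10.1%). The share for Krtap15 is over both of its transcript models together and not over the spliced model that took nearly all counts. Krtap15 had whole counts (477 and 241), and 4930553J12Rik, with which it shares most windows, had no row. Any reads of that gene from shared windows could have been counted as Krtap15. Levels of the others depend on how the authors' estimates divided reads from shared windows. Still, the expected counts of 32 members were whole numbers in both libraries, as they are where no read was divided.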

How the data were processed

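The 2 total RNA-seq libraries of 1 group were used. Per the labels, reads were mapped to mm10 with annotation M4. The aligner, quantifier and use of strand were not given in the sources used here. Per the file headers, the authors gave for each gene and transcript an expected count, not scaled between libraries, and TPM (scaled by length and depth), which sums over genes and spike-ins alike. Also deposited were each transcript's percent of its gene and credibility bounds of TPM, recorded as a score since they sum to no fixed total. Deposited tables were used as they stood.

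Symbols came from GENCODE M21 (GRCm38) for 42462 of 43346 gene identifiers. Expected counts were rounded, scaled with TMM factors from edgeR 4.0.16 in R 4.3.3 (0.989 and 1.01 over 18318 genes) and compared as log2 ratios with a prior count of 2. DESeq2 1.42.0 gave other size factors. The ratio step was tested on simulated data. Composition was computed from annotated coding sequence, and identity is over the longer protein. Python 3.11.15, pandas 2.3.3, scipy 1.17.1, biopython 1.88 and matplotlib 3.10.9 did the rest. The members and lists were chosen with earlier results of these data known. Named were the 12 highest members, those with 10 or more counts in a library, the highest of each family, the lowest 3, those past 2-fold, genes overlapping members and the top 3 of each list; other names were chosen after their values were seen. Both libraries carry 1 donor label, and whether the pools shared litters is not said.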

Additional observations from a re-analysis of the deposited data

How the results depend on the processing

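Of 36 alternatives over 7 results, 29 left the value within its limits, 6 moved it and 1 turned its direction. For the summed TPM and the chromosome 16 share, the limit was the SD of the 2 libraries. Leaving out 1 library can never shift the mean by that much, so these alternatives were bound to count as unchanged and show nothing. Lowering the limit from 1 TPM to 0.1 TPM raised the members above it in both libraries from 29 to 47. As a share of expected counts in place of TPM, the chromosome 16 cluster held 58.8% (62.7% and 54.9% in the replicates) in place of 69.2%. Scaling by spike-in counts shifted the median gene by -0.65 (log2), and with it the members' summed ratio became -1.56 and the members past 2-fold rose from 12 to 27 of 37. The 3 scales chosen after seeing the data gave summed ratios of -0.79 (epidermal keratins), -0.094 (inner root sheath list) and, reversed, 0.11 (hair shaft keratins). The inner root sheath scale was not run without Gata3, so the sign of its value near 0 is not settled. Leaving out each replicate in turn gave 48 to 50 members, 30 to 34 at 1 TPM or more, a summed TPM of 146.5 to 294.1, a chromosome 16 share of 65.7% to 72.8%, and 11 to 13 shaft keratins at 1 TPM or more. Ratios cannot be made without a replicate, and this was not run. No paired analysis was possible because there is 1 group. Without Krtap15 the summed TPM was 169.5 and the summed ratio -0.89. Depth limits the 9 members with under 10 counts in all, and 2 pools allow no test of a difference.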

Other observations

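The cluster spans also hold coding genes that do not carry a Krtap symbol. Of 44 such genes with a value, 37 encode proteins with at least 70% identical residues to a Krtap protein, and 36 had a count above 0. Together they summed to 162.5 TPM in replicate 1 and 95.4 TPM in replicate 2, beside 294.1 and 146.5 TPM for the members, so a selection by symbol leaves out a sizeable part of the sequence family. The highest was 2310034C09Rik on chromosome 16, at 85.7 and 52.2 TPM (1789 and 1135 counts), above every member, with 72.9% identity to Krtap13. Gm10229, 97.4% identical to Krtap6-1, stood at 26.5 and 9.83 TPM, above all 4 Krtap6 members together (13.4 and 4.59 TPM).

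Some of these genes encode a protein identical to a member's. Gm10228 and 1110025L11Rik encode the same protein as Krtap6-1 and stood at 5.73 and 2.38 TPM and at 2.62 and 0.51 TPM. Gm11937 and Gm11938 encode the protein of Krtap2-4 and stood at 5.49 and 3.63 TPM and at 5.87 and 3.51 TPM, each above Krtap2-4 itself (3.39 and 1.54 TPM). Gm11937 had fewer counts than Krtap2-4, though (40.2 and 27.7 against 60.9 and 28.8), so its higher TPM comes from a shorter model. With 35.9% of the windows of Krtap2-4 shared, how reads were split among such genes is uncertain. Of 17 with 10 or more counts in both libraries, 14 were lower in replicate 2 after TMM scaling, beside 48.6% of coding genes with the same counts. More than 2-fold lower were 2, beside 0.649% of coding genes. They were Gm10229 (-1.42) and Gm10228 (-1.23), both of high-glycine-tyrosine composition. Gm10061 and Gm6358, also rich in glycine and tyrosine, had 13 and 10 counts in replicate 1 and were listed at 0 in replicate 2.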
